A study of Mus musculus with 5 samples.

Results

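The genes described here encode the apolipoproteins that liver packs into circulating lipoproteins and the transfer protein that loads lipid onto them: Apoa1, Apoa2, Apoa4, Apoa5, Apob, Apoc1, Apoc2, Apoc3, Apoe and Mttp. They were chosen by name, as the probes for experimental targets whose deposited gene name was one of these symbols, and they make up 10 of the 28632 gene names on the array. The study measured liver RNA of male C57BL/6J mice aged 25 weeks on Agilent mouse arrays in 1 colour (Cy3). For each of its 5 groups RNA of 5 mice was pooled and read on 1 array. No group had a replicate, no spread between mice could be measured, and with so few arrays the precision of every value below is limited. No p-value is given for that reason.

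HFHFr-NA mice ate food high in fat and fructose (the HFHFr diet) during 16 weeks and then a normal diet with added all-trans retinoic acid for 4 weeks, and the labels describe them as recovered from insulin resistance. HFHFr-N mice had the same 16 weeks followed by 4 weeks of normal diet without the supplement and were labelled insulin resistant. HFHFr-FA mice stayed on HFHFr food throughout, with all-trans retinoic acid in it during the last 4 weeks, and were labelled as not insulin resistant with slight liver steatosis. HFHFr-F mice ate HFHFr food for 20 weeks without the supplement and were labelled severely insulin resistant. Control mice were untreated. The HFHFr-FA array was alone on a second slide, while the other 4 arrays shared a slide. Wherever HFHFr-FA is compared, its slide cannot be told apart from its treatment.

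Liver secretes triglyceride as very-low-density lipoprotein, a particle built on a single molecule of apolipoprotein B. The microsomal triglyceride transfer protein, product of Mttp, moves lipid onto apolipoprotein B while it is being made in the endoplasmic reticulum, and without that lipid most of the protein is degraded. The smaller apolipoproteins exchange between particles in plasma and set what happens next: some activate or restrain lipoprotein lipase, some are ligands for hepatic receptors, and some carry the high-density particles that return cholesterol to the liver. Apolipoprotein A-IV is made mainly by intestine and also by mouse liver, where it is known to increase with fat accumulation.

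The levels below are the scanner's background-subtracted signals divided by the 75th percentile of the array's own non-control spots, called scaled signal here. Ratios are log2 differences of scaled signal between 2 arrays, and 2-fold is the size at which a gene was counted as apart. Genes detected well above background on either array of a pair were compared. All 16 probes of the 10 genes, on 34 spots, were well above background on all 5 arrays, and none was saturated. Probes printed at 10 places on the array gave the technical spread, a median spot SD of 0.0704 to 0.0856 log2 units by array, which is no measure of the difference between mice. All 8 hepatocyte markers on the array, such as Alb and Ttr, were well above background on every array. The 5 arrays were otherwise alike, with 46.73% to 49.41% of spots well above background. In bulk liver RNA, fewer cells of a type and less RNA per cell cannot be told apart.

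The probes that carried the results are shown first. Apoa4 and Mttp were each read by a single 60-base probe on a single spot, so what is said of them rests on these sequences. The Apoa4 probe lay on chr9:46049661-46050404 (mm9, plus strand), spans 744 bases of the genome there because it crosses an intron, and starts at base 469 of the transcript. The Mttp probe lay within 1 exon at chr3:137757948-137758007 (mm9, minus strand) and starts at base 2278. The Apob probes shown sit far apart and next to each other along the longest transcript of the set: the first at chr12:8014710-8014769, and the other two, which abut with no base between them, at chr12:8023134-8023193 and chr12:8023194-8023253 (mm9, plus strand). The sequences run 5′ to 3′ as given in the deposited files, all in lower case since no part of a probe is singled out.
Apoa4 probe: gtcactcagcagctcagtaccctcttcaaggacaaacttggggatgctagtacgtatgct
Mttp probe: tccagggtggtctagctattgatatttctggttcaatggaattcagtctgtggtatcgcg
Apob probe at base 6486: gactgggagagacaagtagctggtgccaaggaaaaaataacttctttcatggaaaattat
Apob probe at base 13397: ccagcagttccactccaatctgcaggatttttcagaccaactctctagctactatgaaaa
Apob probe at base 13457: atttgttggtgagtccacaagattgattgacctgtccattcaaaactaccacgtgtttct

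**Figure D1:**
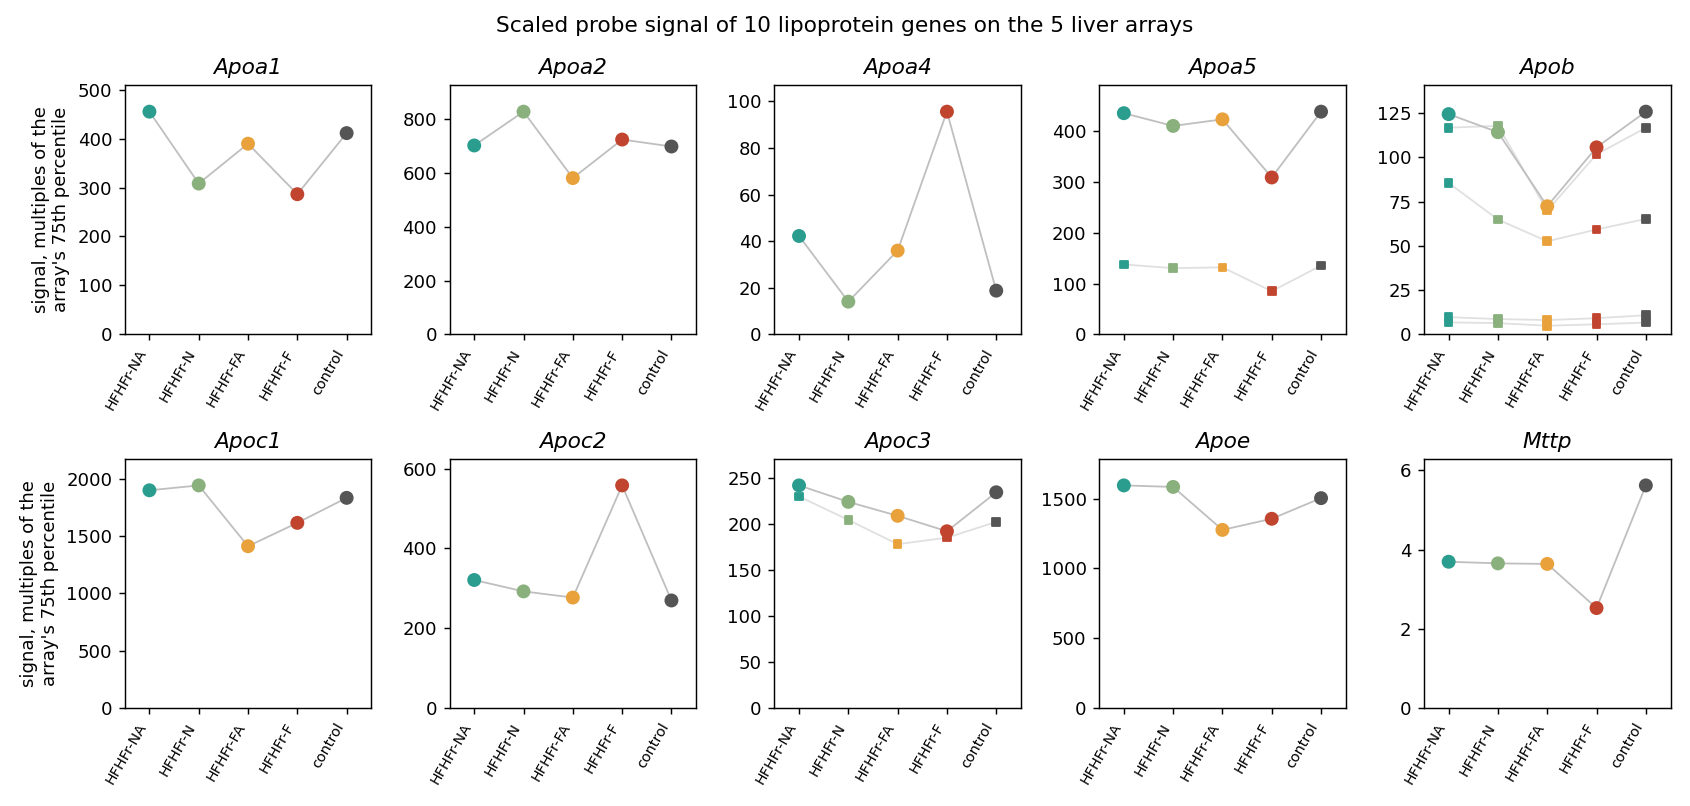
Scaled signal (multiples of the array's 75th percentile, vertical axis starting at 0) of the 10 genes on the 5 liver arrays; large circles are the probe that stands for the gene and small squares its other probes, each array being 1 pool of 5 mice with no error bar. Apoa4 and Apoc2 were highest in HFHFr-F livers at 95.6 and 558, Mttp was highest in control livers at 5.62, and the other panels are flatter.

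Apoa4 varied most among the 10 genes. Its scaled signal was 42.2 in HFHFr-NA livers, 14.0 in HFHFr-N livers, 35.9 in HFHFr-FA livers, 95.6 in HFHFr-F livers and 18.8 in control livers. HFHFr-F stood far above every other array, both retinoic acid arrays were intermediate, and HFHFr-N and control were low. The highest value was 6.81 times the lowest, and of 13131 genes measured on all arrays 75, or 0.571%, had a wider range. Each step in the order of the 5 arrays was larger than the technical spot spread, the smallest being 0.23 log2 units between HFHFr-NA and HFHFr-FA.

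Apoc2 and Mttp had the next widest ranges. Apoc2, the obligate activator of lipoprotein lipase, had a scaled signal of 321 in HFHFr-NA livers, 293 in HFHFr-N livers, 277 in HFHFr-FA livers, 558 in HFHFr-F livers and 269.8 in control livers. Only HFHFr-F stood apart from the group of similar values formed by the other arrays. Mttp had 3.69 in HFHFr-NA livers, 3.65 in HFHFr-N livers, 3.64 in HFHFr-FA livers, 2.52 in HFHFr-F livers and 5.62 in control livers. Its control value was the highest and its HFHFr-F value the lowest, and the 3 arrays between them differed by less than the spot spread. The ranges were 2.07-fold for Apoc2 and 2.23-fold for Mttp, wider than those of most genes, and 14.0% and 10.9% of the 13131 genes had wider ones.

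The other 7 genes stayed under 2-fold in every comparison. Their ranges over the 5 arrays ran between 1.25-fold for Apoe, the main receptor ligand on remnant particles, and 1.74-fold for Apob, against a median range of 1.48-fold over all measured genes. Of the 40 steps between neighbours in the order of the 5 arrays, over all 10 genes, 17 were smaller than the largest median spot SD of 0.0856. Apoa1, Apoa5, Apoc3 and Mttp were lowest in HFHFr-F livers, and Apoa2, Apob, Apoc1 and Apoe in HFHFr-FA livers. This holds for the probe that stands for each gene. The other Apoc3 probe was lowest in HFHFr-FA livers, at 178 against 185 in HFHFr-F livers. No share of all genes stands beside these orders, so they only describe the 10 genes.

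The first comparison was HFHFr-F against control, 20 weeks of the diet against none. Apoa4 and Apoc2 were at least 2-fold higher in HFHFr-F livers and Mttp at least 2-fold lower, so 2 of 10 genes were higher and 1 was lower. Over all 14628 genes measured in this comparison 8.61% were at least 2-fold apart, 5.4% higher and 3.21% lower. The median log2 ratio of the 10 genes was -0.22, with 7 of 10 below 0, beside -0.08 for all genes.

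In HFHFr-F livers Apoa4, at 95.6 against 18.8 in control livers, was 5.09-fold higher, a log2 ratio of 2.35, and 86 genes (0.588%) had a higher ratio. Apoc2, at 558 against 269.8, was 2.07-fold higher, a log2 ratio of 1.05. These differences were 27.4 and 12.2 times the larger of the spot SDs of both arrays. The 33 detected spots lying within 4 rows and 4 columns of the Apoa4 spot had a median log2 ratio of -0.09, with a range of -0.96 to 0.72, so the Apoa4 ratio lay outside that of its surroundings on the slide. Around the Apoc2 spot 39 spots ranged between -0.93 and 0.81.

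On the assembly side, Mttp stood at 2.52 in HFHFr-F livers against 5.62 in control livers, 2.23-fold lower with a log2 ratio of -1.15. The 21 detected spots around it had a median of -0.26 and a lowest value of -0.73. Apob, the structural protein that Mttp lipidates, had log2 ratios of -0.14 to -0.25 over its 5 probes, all below 0 and all under 2-fold. With normexp background correction and quantile normalization in place of percentile scaling, the Mttp ratio was -0.92 and no longer 2-fold.

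Apoa1 and Apoa5 were lower in HFHFr-F livers by less than 2-fold. Apoa1, the main protein of high-density lipoprotein, was read on 10 spots, at 286 ± 7.28 in HFHFr-F livers and 411 ± 16.2 in control livers (SD over 10 spots of 1 array each). The 2 sets of spots did not overlap, and the log2 ratio was -0.52. Apoa5, a secreted protein that helps lipoprotein lipase, had a scaled signal of 309 in HFHFr-F livers against 438 in control livers on its brighter probe, a log2 ratio of -0.51, and its other probe gave -0.67. Apoc3, an inhibitor of triglyceride clearance, had log2 ratios of -0.29 and -0.13 on 2 probes that share 50 of their 60 bases. Apoc1 (-0.18), Apoe (-0.15) and Apoa2 (0.05) lay closest to 0.

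**Figure D2:**
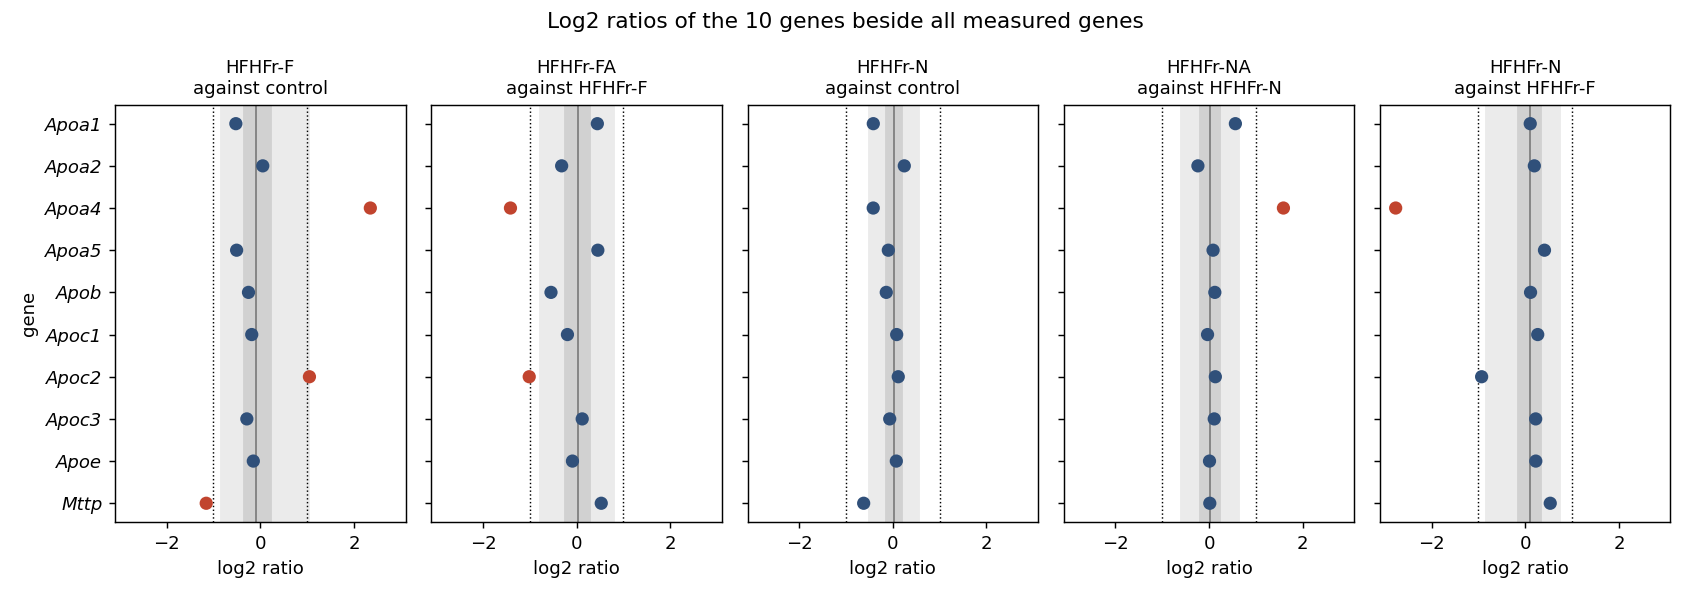
Log2 ratios (horizontal axis) of the 10 genes in the 5 comparisons, beside all genes measured: the dark band covers the 25th to 75th percentile, the light band the 5th to 95th, the grey line the median and the dotted lines 2-fold. Red points are at least 2-fold apart, and Apoa4 is the red point farthest out in 4 of the 5 panels, at 2.35, -1.41, 1.59 and -2.77.

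The second comparison, HFHFr-FA against HFHFr-F, set 4 weeks of all-trans retinoic acid in the HFHFr diet against the same diet without it. The 2 genes that had been highest in HFHFr-F livers, Apoa4 and Apoc2, were at least 2-fold lower with the supplement, and none of the 10 was 2-fold higher. Among all 14925 genes measured 5.55% were at least 2-fold apart, 2.71% higher and 2.83% lower. Since both comparisons use the HFHFr-F array, opposite signs in them are not independent of each other. The median of the 10 genes was -0.14, beside 0.03 for all genes.

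With the supplement Apoa4 was 35.9 in HFHFr-FA livers against 95.6 in HFHFr-F livers, 2.66-fold lower with a log2 ratio of -1.41, and 171 genes (1.15%) had a lower ratio. Apoc2 was 277 in HFHFr-FA livers against 558 in HFHFr-F livers, 2.01-fold lower with a log2 ratio of -1.01. That ratio lies at the edge of the 2-fold size, and under cyclic loess normalization it was -0.95. The 35 detected spots around the Apoa4 spot ranged between -0.95 and 1.28, and the 37 around the Apoc2 spot between -1.27 and 0.92, a range that contains the Apoc2 ratio.

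Mttp was 3.64 in HFHFr-FA livers against 2.52 in HFHFr-F livers, a log2 ratio of 0.53. Apoa1 and Apoa5 leaned the same way. Apoa1 spots averaged 389.8 ± 14.8 in HFHFr-FA livers and 286 ± 7.28 in HFHFr-F livers (SD over 10 spots of 1 array each), did not overlap, and gave a log2 ratio of 0.44. Apoa5 had log2 ratios of 0.45 and 0.64 on its 2 probes.

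The Apob transcript was the member with the most probes, and its level in HFHFr-FA livers was the lowest of the 5 arrays on all 5 of them. The size of the difference varied among the probes. The 3 probes starting at bases 3189, 6486 and 10517 gave log2 ratios of -0.18, -0.17 and -0.22 for HFHFr-FA against HFHFr-F, while the 2 adjoining probes at bases 13397 and 13457 gave -0.54 and -0.55. These adjoining probes are also the 2 brightest, so place and brightness cannot be told apart here. The brightest of them, at base 13457, read 72.4 in HFHFr-FA livers against 106 in HFHFr-F livers. In the other comparisons the 5 probes differed by 0.11 to 0.41 log2 units, with no common order along the transcript, as the plot of Apob probes shows. The slide of the HFHFr-FA array and its part in this difference between probes was not tested.

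**Figure D3:**
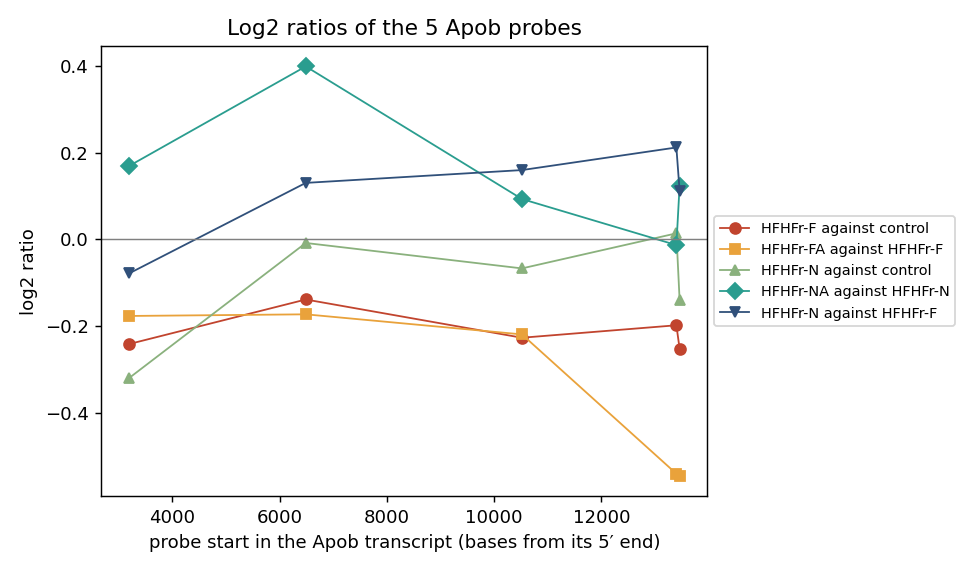
Log2 ratios (vertical axis) of the 5 Apob probes against the position where each probe starts in the transcript (bases, horizontal axis), 1 line per comparison and 1 point per probe with no error bar. The line of HFHFr-FA against HFHFr-F drops to -0.54 and -0.55 at the 2 probes nearest the 3′ end, while HFHFr-NA against HFHFr-N reaches 0.40 at base 6486.

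Of the remaining members in HFHFr-FA against HFHFr-F, Apoa2, the second protein of high-density lipoprotein, had 581 in HFHFr-FA livers against 724 in HFHFr-F livers, a log2 ratio of -0.32. Apoc1, which restrains lipid transfer and uptake of particles, had -0.19, and Apoe -0.09. The overlapping Apoc3 probes differed in sign, at 0.12 and -0.06, a gap of 0.18 that shows how far ratios of near-identical probes can part.

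HFHFr-N against control asked what remained 4 weeks after the HFHFr diet was replaced by normal food. None of the 10 genes was 2-fold apart, where 1.99% of all 14506 genes were, 1.15% higher and 0.834% lower. The median of the 10 was -0.08, beside 0.03 for all genes. Mttp, at 3.65 in HFHFr-N livers against 5.62 in control livers, was 1.54-fold lower with a log2 ratio of -0.62, and 3.16% of all genes had a lower one. Apoa4, at 14.0 in HFHFr-N livers, was below the 18.8 of control livers, with a log2 ratio of -0.42.

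Apoa1 spots averaged 308 ± 10.9 in HFHFr-N livers and 411 ± 16.2 in control livers, without overlap, a log2 ratio of -0.42. Each of the 10 spot positions was lower in HFHFr-N, with log2 ratios of -0.45 to -0.37. The remaining 7 genes had log2 ratios of -0.14 to 0.25, among them Apoc2 at 0.12 and Apob at -0.14, and the highest was Apoa2.

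Retinoic acid added to the normal diet was examined by HFHFr-NA against HFHFr-N. Apoa4 was the 1 gene of the 10 at least 2-fold higher, and none was 2-fold lower. Over all 14873 genes 2.82% were at least 2-fold apart, 1.51% higher and 1.31% lower. Apoa4 had 42.2 in HFHFr-NA livers against 14.0 in HFHFr-N livers, 3.01-fold higher with a log2 ratio of 1.59, and 63 genes (0.424%) had a higher ratio. The 35 detected spots around its position ranged between -1.06 and 0.71. With the supplement Apoa4 was thus lower on the HFHFr diet and higher on the normal diet. Whether the 2 effects of the supplement differ could not be tested with 1 array a group.

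Apoa1 was next, at 455 ± 13.7 in HFHFr-NA livers against 308 ± 10.9 in HFHFr-N livers (SD over 10 spots of 1 array each), with no overlap of the spots and a log2 ratio of 0.56. All 10 spot positions were higher, by 0.52 to 0.60 log2 units, and 6.66% of all genes had a higher ratio. Unlike Apoa4, Apoa1 had a positive ratio for the supplement on both diets. Mttp was the same within the spot spread, 3.69 in HFHFr-NA livers and 3.65 in HFHFr-N livers, a log2 ratio of 0.02. Apoe (0.01), Apoc1 (-0.03), Apoa5 (0.09), Apoc3 (0.11) and Apoc2 (0.13) were near 0, and Apoa2 was -0.24. The 5 Apob probes ran between -0.01 and 0.40, 4 of them above 0, the widest gap between them in any comparison. The median of the 10 was 0.10, beside 0.02 for all genes.

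**Figure D4:**
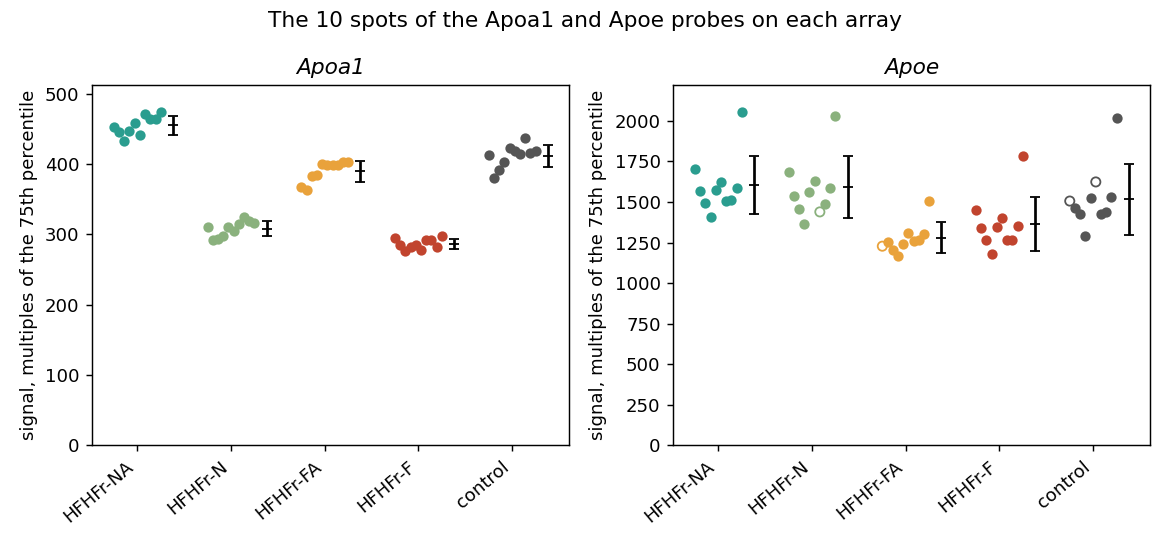
Scaled signal (multiples of the array's 75th percentile) of the 10 spots of the Apoa1 probe and of the Apoe probe on each of the 5 arrays, with the mean and SD over spots at the right of each set; open circles are spots the scanner software marked as outliers and are left out of the mean. Apoa1 spots cluster at 455 in HFHFr-NA livers and 286 in HFHFr-F livers without overlap, whereas Apoe spots of all arrays overlap and the same spot is the brightest on 5 of 5 arrays.

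HFHFr-N against HFHFr-F compared 4 weeks of normal food with continued HFHFr food. Apoa4 was the 1 gene of the 10 at least 2-fold apart, and it was lower in HFHFr-N livers. Among all 14799 genes 5.78% were 2-fold apart, 2.16% higher and 3.62% lower. Its levels of 14.0 in HFHFr-N livers and 95.6 in HFHFr-F livers lie 6.81-fold apart, a log2 ratio of -2.77, and 19 genes (0.128%) had a lower ratio. Apoc2, at 293 in HFHFr-N livers against 558 in HFHFr-F livers, had a log2 ratio of -0.93, just under 2-fold, and reached -1.04 to -1.06 under median scaling, cyclic loess, and normexp with quantile normalization.

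The other 8 ratios were above 0, and the median of the 10 was 0.21, beside 0.10 for all genes. These small ratios depended on the scaling. The median was 0.072 under cyclic loess, where Apoa1 and Apob were below 0, and -0.0024 under normexp with quantile normalization, where Apoa2 was also below 0. Quantile normalization gives probes of the same rank the same value, and under it the ratio of Apoc1 was 0 in each comparison. Medians near 0 under that setting are therefore partly set by the method. Mttp had 3.65 in HFHFr-N livers against 2.52 in HFHFr-F livers, a log2 ratio of 0.53. Apoa5 had 0.41 and 0.62 on its 2 probes. Apoa1 had 0.11, with overlapping spots, and Apob had ratios of -0.08 to 0.21 over its 5 probes. Apoe, on spots that overlapped between all arrays, averaged 1593 ± 190 in HFHFr-N livers (SD over 9 spots) and 1364 ± 167 in HFHFr-F livers (SD over 10 spots). Compared position by position, its 9 shared spots were all higher in HFHFr-N, by 0.21 ± 0.02 log2 units (SD over spots). The brightest of the 10 positions was the same on all 5 arrays.

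Members that neighbour each other in the genome did not share one pattern. Apoa1, Apoc3, Apoa4 and Apoa5 lie next to each other in that order on chromosome 9, and their log2 ratios in HFHFr-F against control were -0.52, -0.29, 2.35 and -0.51. Apoc2, Apoc4, Apoc1 and Apoe lie next to each other on chromosome 7, and there the ratios were 1.05, -0.18, -0.18 and -0.15. Apoa4 and Apoc2 were therefore the 1 gene of each cluster at least 2-fold apart in that comparison. Probe profiles centred on their mean over the 5 arrays were most alike for Apoc1 and Apoe, at a root mean square distance of 0.05 log2 units, while Apoa4 was at least 0.68 from every other member, Apoc2 being the nearest.

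The sequences upstream of the 3 genes with the widest ranges are shown because they could be read beside each other for short motifs. RefSeq windows (GRCm38.p6) were at hand for 8 of the 10 genes, 12 windows in all, and the 250 bases before each start were searched on both strands for TATAAA (core promoter box), AGGTCA (half-site of many nuclear receptors), CAAAGTC (part of a site for Hnf4a), CCAAT and TGACGT (core of sites for Creb-type factors). None of these motifs contains another, and a base could count for more than 1 of them. The shares of all 32851 windows of that length with a match were 12.4% for TATAAA, 14.0% for AGGTCA, 3.84% for CAAAGTC, 33.8% for CCAAT and 6.47% for TGACGT. The 250 bases before Apoa4 at chr9:46240594-46240843 (plus strand) held none of them. Those before Mttp at chr3:138143419-138143668 (minus strand) held the reverse complement of TGACGT at 29 to 24 bases before the start. Apoc2 is shown for the 142 bases that separate it from the end of Apoc4 at chr7:19677942-19678083 (minus strand), which held AGGTCA at 115 to 110 bases before its start. The sequences below run 5′ to 3′ towards the gene, with the matches in capitals.
Apoa4 upstream: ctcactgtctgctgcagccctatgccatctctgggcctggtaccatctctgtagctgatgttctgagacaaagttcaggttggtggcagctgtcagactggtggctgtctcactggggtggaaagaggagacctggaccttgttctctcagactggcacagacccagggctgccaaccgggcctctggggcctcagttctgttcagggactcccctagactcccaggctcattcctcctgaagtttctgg
Mttp upstream: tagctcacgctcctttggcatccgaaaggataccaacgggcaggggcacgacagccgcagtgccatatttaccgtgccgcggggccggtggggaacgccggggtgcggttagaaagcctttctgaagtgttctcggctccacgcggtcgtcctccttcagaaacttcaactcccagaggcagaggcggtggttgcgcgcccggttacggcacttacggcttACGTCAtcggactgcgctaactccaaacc
Apoc2 upstream: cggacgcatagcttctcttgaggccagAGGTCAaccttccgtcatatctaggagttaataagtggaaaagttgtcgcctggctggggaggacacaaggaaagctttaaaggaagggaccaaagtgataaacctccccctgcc

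A match of this kind is a string of letters and no evidence of binding. Of the other windows, TATAAA was found before Apob at 60 to 55 bases, before both Apoa5 starts as the same bases, before 1 of 2 Apoa2 starts and before 1 of 3 Apoe starts. The reverse complement of AGGTCA lay 238 to 233 bases before 1 of 2 Apoa2 starts, so AGGTCA was not particular to Apoc2. That of CCAAT lay before both Apoa2 starts. The Apoa1 window held none of the 5 motifs. Apoa4, with the widest range, and Apoa1, which stayed under 2-fold, were alike in this.

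Genes whose profile over the 5 arrays was most like that of 3 members were looked for among 10786 genes with a proper symbol that were detected on all arrays. Likeness was the root mean square distance between log2 profiles after each gene's mean was subtracted, over 5 arrays. Nearest to Apoa4 were Tff3, a secreted trefoil peptide, at 0.21, Nol3, an inhibitor of apoptosis, at 0.34, Sprr1a, a small proline-rich protein, at 0.40, and Afp, the fetal serum protein alpha-fetoprotein, at 0.42. Tff3 read 0.612 in HFHFr-NA livers, 0.175 in HFHFr-N livers, 0.476 in HFHFr-FA livers, 1.55 in HFHFr-F livers and 0.199 in control livers, the same order of arrays as Apoa4. Nearest to Apob was Tm7sf2, an enzyme of cholesterol synthesis, at 0.03, and nearest to Mttp was Ccdc117 at 0.06. With 5 points a profile, a close match is easily found among this many genes.

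**Figure D5:**
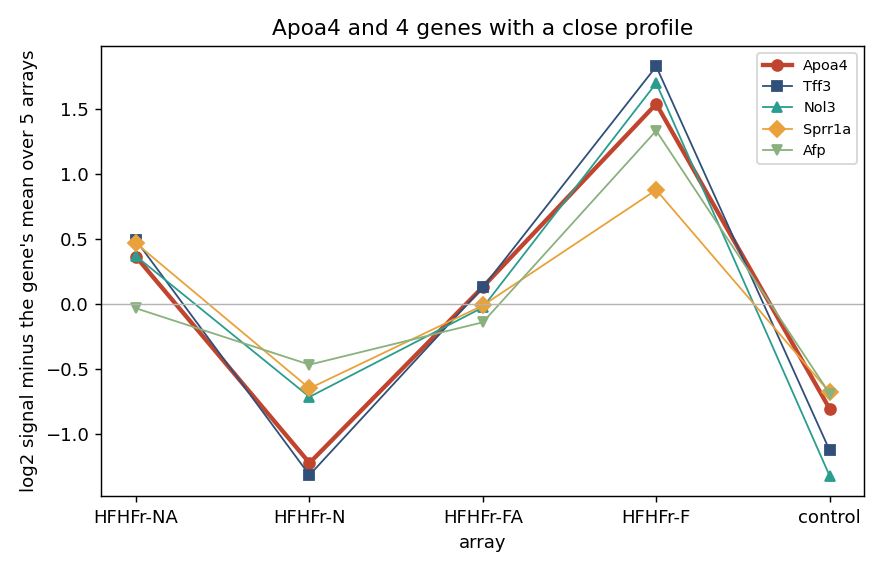
Log2 signal minus each gene's own mean over the 5 arrays (vertical axis) for Apoa4 and 4 genes close to it, 1 point per array with no error bar. All 5 genes are highest in HFHFr-F livers, and Tff3 follows Apoa4 most closely, at a distance of 0.21.

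Marker signals of other cell types also differed among these arrays. Of 8 markers of lipid-associated macrophages, such as Trem2, 6 were well above background in HFHFr-NA livers, 6 in HFHFr-N, 7 in HFHFr-FA, 8 in HFHFr-F and 5 in control livers. Their summed scaled signal was 17.9 in HFHFr-NA livers, 19.7 in HFHFr-N, 26.5 in HFHFr-FA, 97.3 in HFHFr-F and 16.8 in control livers. All 11 markers of Kupffer cells and other macrophages were well above background on every array, and their sums were 78.2, 98.7, 149, 158 and 82.8 in the same order of groups. Single markers weighed heavily in these sums, Spp1 with 60.4 of the lipid-associated sum in HFHFr-F livers and Cd5l with 64.7 and Marco with 37.7 of the other. The resident Kupffer cell markers Clec4f and Vsig4 had log2 ratios of 0.13 and 0.05 in HFHFr-F against control, and Timd4 had -0.87. HFHFr-F, where Apoa4 and Apoc2 were highest, also had the highest sums of cholangiocyte markers, 1.65 against 1.14 in control livers, and of erythroid markers, 142 against 92.2 in control livers. Not all markers of these sums were higher. Hba-a1 gave 118 of the erythroid sum in HFHFr-F livers, while Alas2 was 23.1 there against 30.2 in control livers. The cholangiocyte marker Sox9 was 0.643 against 0.692, and 4 of 6 cholangiocyte markers were well above background in HFHFr-F livers and 2 in control livers. The part of all these cell types in the Apoa4, Apoc2 and Apoe signals was not tested. The hepatocyte sum was 3813 in HFHFr-F livers and 4542 in control livers. Alb weighed most, at 1430 in HFHFr-F livers against 1616 in control livers. Of the 8 markers 1, Cps1, was 2-fold lower, at 62.8 against 163. Ttr, at 19.0 against 14.8, and Asgr1, at 200 against 197, were not lower in HFHFr-F livers.

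Apoa4 and Apob are also made by enterocytes. Of 8 enterocyte markers 5, namely Vil1, Sis, Lct, Cdx1 and Cdx2, were not well above background on any array, and the other 3 were detected on all. Their summed scaled signal was 269 in HFHFr-NA livers, 220 in HFHFr-N, 192 in HFHFr-FA, 228 in HFHFr-F and 180 in control livers, nearly all of it Fabp2. Of the other detected markers Lgals4 read 8.76 in HFHFr-NA livers, 4.69 in HFHFr-N, 10.46 in HFHFr-FA, 3.46 in HFHFr-F and 5.70 in control livers. Lgals4 was thus lowest where Apoa4 was highest. Alpi went the other way and was highest in HFHFr-F livers, at 0.242, with 0.207 in HFHFr-NA livers next. Fabp2 was 224.6 in HFHFr-F livers against 173.9 in control livers, and highest in HFHFr-NA livers at 260.1. The part of intestinal RNA in the Apoa4 and Apob signals was not tested. Of 4 adipocyte markers Adipoq, Plin1 and Lep were not well above background on any array. The fourth, Cfd, was detected on all, at 21.8 in HFHFr-NA livers, 67.9 in HFHFr-N, 64.2 in HFHFr-FA, 31.0 in HFHFr-F and 28.2 in control livers, highest in HFHFr-N and HFHFr-FA livers.

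The wider lipoprotein pathway was described by lists of named genes. Among 21 genes of particle assembly, RNA editing and secretion, 1 was 2-fold higher in HFHFr-F than in control livers and none lower, near the 5.4% and 3.21% of all genes, and their median of -0.09 was close to the -0.08 of all genes. The 1 gene was Ces1g, a lipid hydrolase, at 63.7 in HFHFr-F livers against 30.3 in control livers, a log2 ratio of 1.07. Apobec1, which edits Apob messenger RNA, had 0.69, and Tm6sf2, which assists lipid loading of the particle, had -0.71. With retinoic acid, 2 of the 21 were 2-fold lower in HFHFr-FA than in HFHFr-F livers, where 2.83% of all genes were. They were Sort1, a sorting receptor that binds apolipoprotein B, at -1.86, and Ces1g at -1.14. Sort1 was 0.340 in HFHFr-F livers and 0.0938 in HFHFr-FA livers. The second value is close to the detection limit, since Nr1d1 at 0.0651 was not well above background on that array. Ces1g was also the 1 gene of this list apart in HFHFr-NA against HFHFr-N, at -1.10, where 2.82% of all genes were apart.

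Outside the 10 genes, no other apolipoprotein or lipoprotein-bound protein was 2-fold apart in any of the 5 comparisons, of 12 measured. Of all genes 1.99% to 8.61% were apart by comparison, and none of 12 is near such shares. Within HFHFr-NA against HFHFr-N, Apom, a high-density lipoprotein protein that carries sphingosine 1-phosphate, came nearest to 2-fold, with a log2 ratio of 0.73. In HFHFr-FA against HFHFr-F it had 0.52, where Apool, a mitochondrial protein of the same name series, had -0.53. In HFHFr-F against control Apol9a had -0.93, the ratio of this list nearest to 2-fold in any comparison. Saa4 had 0.72 there and Apom -0.64. Apol9a also had 0.76 in HFHFr-N against HFHFr-F. The 3 Apom ratios had the same signs as those of Apoa1.

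Genes that act on particles after secretion moved in both directions in HFHFr-F against control. Of 12 remodelling genes 2 were 2-fold higher and none was 2-fold lower, with a median of 0.09, where 5.4% of all genes were higher and 3.21% lower: Lpl, the lipoprotein lipase that Apoc2 activates, had 4.22 in HFHFr-F livers against 1.36 in control livers, a log2 ratio of 1.63, and Pltp, the phospholipid transfer protein, had 1.60. Lipc, the hepatic lipase, was just under 2-fold lower at -0.98, and 5 of the 12 ratios were below 0. Of 12 receptor and uptake genes 3 were 2-fold higher, beside the same 5.4% of all genes, namely Vldlr at 1.64, Apobr at 1.19 and Cd36 at 1.14, with a median of 0.26. The sum of lipid-associated macrophage markers was also higher in HFHFr-F livers, 97.3 against 16.8 in control livers, and its part in the ratios of these genes was not tested. In HFHFr-FA against HFHFr-F, Pltp (-1.43) and Vldlr (-1.70) were the genes of these lists at least 2-fold lower, where 2.83% of all genes were. Both list medians were 0.04, beside 0.03 for all genes. In HFHFr-N against control, Vldlr (1.51) and Cd36 (1.17) were at least 2-fold higher, where 1.15% of all genes were. Cd36 was at least 2-fold lower in HFHFr-NA than in HFHFr-N livers at -1.15, where 1.31% of all genes were. In HFHFr-N against HFHFr-F 4 of 12 remodelling genes were 2-fold lower, where 3.62% of all genes were, among them Lpl at -1.39 and Pla2g7, a lipoprotein-bound phospholipase, which was not well above background in HFHFr-N livers and thus at least 2.35-fold lower. Of 7 cholesterol efflux genes 1 was 2-fold higher in HFHFr-F than in control livers, where 5.4% of all genes were. It was Abcg1, an exporter to high-density lipoprotein, at 1.06, and the list median was 0.37. None of the 7 was 2-fold apart in the other 4 comparisons, where 1.99% to 5.78% of all genes were. With 7 genes such counts say little about the list. The part of macrophages in the Abcg1 ratio was not tested either.

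Among 25 regulators of apolipoprotein genes, 1 was 2-fold higher and 2 were lower in HFHFr-F than in control livers, with a median of -0.26, where 8.61% of all genes were 2-fold apart. Srebf1, the main activator of fatty acid synthesis genes, was 1.93 on the log2 scale. Nr1d1, a clock repressor that also acts on lipid genes, was -2.95, and Nr0b2, a repressor induced by bile acids, was -1.36. Nr1d1 read 0.137 in HFHFr-F livers against 1.06 in control livers. The first value is not far above the detection limit, since Apol6 at 0.0794 was not well above background on that array. With retinoic acid on the HFHFr diet Srebf1 was -1.21 and Mlxipl, the carbohydrate response factor, was 1.21. They were the regulators 2-fold apart there, where 5.55% of all genes were. No regulator was 2-fold apart in HFHFr-NA against HFHFr-N, and none of 25 is near the 2.82% of all genes. Srebf1 was 1.73 in HFHFr-N against control, the 1 regulator apart there, beside 1.99% of all genes. In HFHFr-N against HFHFr-F 2 of 25 regulators were 2-fold higher, where 2.16% of all genes were. They were Nr1d1 (2.76, from the same low HFHFr-F value) and Nr0b2 (1.26).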

How the data were processed

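Liver RNA pooled from 5 mice per group was labelled with Cy3 and hybridised to 1 Agilent 4x44K array per group, and each array holds 43379 non-control spots. Per the file headers, the authors deposited scanner intensity values from Feature Extraction 10.5.1.1, background-subtracted, of 1 colour, with probe positions on mm9. The authors also deposited a table of values that are the same signals divided by 1 constant per array, that is, a linear ratio, not a log value; its column medians were 0.0744 (HFHFr-NA), 0.0738 (HFHFr-N), 0.0721 (HFHFr-FA), 0.0675 (HFHFr-F) and 0.0700 (control), and each constant lay within 0.0106% of the 75th percentile of all spots of that array.

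Here each array's log2 signals were lowered by the 75th percentile of its non-control spots, outlier-flagged spots were left out, spots of a probe were averaged, and the probe with the highest mean over the 5 arrays stood for a gene, with all probes of the 10 genes reported. Where a gene was well above background on 1 of the 2 arrays, its ratio is a bound. Names came from RefSeq accessions for 24844 of 41174 probes and from the files for the rest, and 161 of 164 listed genes were matched. The comparisons are single ratios with no test. The alternatives were median scaling, cyclic loess, normexp (offset 50) with quantile normalization (limma 3.58.1), the deposited table, the mean of all probes, a 1.5-fold size and no detection filter. The ratio calculation was tested on simulated data. The 10 genes and the lists were chosen with earlier results of these data known. Of each list the 3 genes with the largest ratio in a comparison may be named, and Apob, Mttp and the gene with the widest range were chosen for the search for alike profiles. Spots around a probe and ratios by spot position were added after the values were seen. Of the alike profiles 4 a gene are shown, of the motifs 5, and some items are not reported here.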

Additional observations from a re-analysis of the deposited data

Results flagged for a closer look

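Apoa4 had ratios of opposite sign for the same supplement on 2 diets, and it was singled out for that reason. With all-trans retinoic acid it had a log2 ratio of -1.41 in HFHFr-FA against HFHFr-F and 1.59 in HFHFr-NA against HFHFr-N. The difference between these effects was not tested, since each rests on 1 array a group, and HFHFr-FA was alone on its slide. Of 14275 genes measured in both comparisons, 14 (0.0981%) were at least 2-fold lower with the supplement on the HFHFr diet and at least 2-fold higher with it on the normal diet, and 13 were apart in the opposite sense. Over the alternatives the first ratio ran between -1.51 and -1.37 and the second between 1.52 and 1.59.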

How the results depend on the processing

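No ratio of the 10 genes that was at least 2-fold turned its sign under any alternative run. Of 250 recomputed ratios 169 moved by less than the spot spread and 81 by more, 10 of the 250 changed sign, and the largest move was 0.33 log2 units. The median of the 10 genes in HFHFr-F against control, -0.22, was -0.10 under cyclic loess and -0.064 under normexp with quantile normalization. In HFHFr-FA against HFHFr-F it was -0.14, against -0.24 under median scaling and -0.0056 under normexp, and 1 gene in place of 2 was apart under loess. In HFHFr-NA against HFHFr-N it was 0.10, against 0.0089 under loess and 0.0099 under normexp. In HFHFr-N against HFHFr-F it was 0.21, against 0.10 under median scaling, 0.072 under loess and -0.0024 under normexp, and 2 genes in place of 1 were apart under each of these and at 1.5-fold. At 1.5-fold 1 gene was apart in HFHFr-N against control in place of 0. Apart from the equal values that quantile normalization gives to probes of the same rank, the cause was not tested. Over all genes, loess moved the median by 0.10 in HFHFr-F against control and by -0.11 in HFHFr-N against HFHFr-F, and the share of higher genes among those apart was then 74.2% in place of 62.7% and 24.4% in place of 37.3%. Normexp gave 28.5% in HFHFr-N against HFHFr-F. Median scaling gave 35.3% in place of 48.9% in HFHFr-FA against HFHFr-F and 25.6% in HFHFr-N against HFHFr-F. Without the detection filter the genes apart were 3121 in place of 1260, 2463 in place of 828, 1844 in place of 288, 2111 in place of 419 and 2730 in place of 855, in the order in which the comparisons were reported. In that order normexp gave 332 higher and 141 lower, 135 and 152, 47 and 33, 50 and 43, and 76 and 191. The 1.5-fold size gave 1700 higher and 1710 lower, 1460 and 1312, 644 and 530, 904 and 773, and 1370 and 1344. The mean of all probes gave 315 higher and 177 lower in HFHFr-N against control and 379 and 303 in HFHFr-NA against HFHFr-N. Leaving out a replicate was not possible. No paired analysis was possible because each group was 1 array of pooled RNA and the groups share no replicate number beyond that.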
